A study of Mus musculus with 64 samples.

Results

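Mitochondrial ribosomal protein genes were taken as the protein-coding mouse genes whose symbol starts with Mrpl or Mrps and a digit and that had at least 10 counts in at least 7 libraries. Of 55401 gene identifiers in the count table, 78 protein-coding genes carried such a symbol, and 77 passed the count rule, 48 named for the large subunit and 29 for the small subunit. A further 5 genes with such symbols are annotated as pseudogenes and were not used. Poly-A RNA was measured by sequencing in gastrocnemius muscle of 64 mice, which form 8 groups by genotype, treatment, and time of day. HIF1α KO mice carry the Hsa-cre transgene, in which the human α-skeletal actin promoter drives Cre in muscle fibers, and Hif1a alleles with loxP sites around exon 2, so that other cells of the muscle keep Hif1a, and fl/fl littermates carry the floxed alleles without Cre. Both genotypes were on a C57BL/6JBomTac background and 12 to 18 weeks old, with 4 females and 4 males in each group. Exercised mice ran for 60 min at up to 16 m/min on a 5% incline at ZT3, in the inactive phase, or at ZT15, in the active phase, sedentary mice were placed on a sham treadmill, and muscle was taken 3 h later. The library of mouse 44 (HIF1α KO, ZT3, exercised) held 382 counts and was left out, which leaves 7 mice in that group, 8 in each other group, and 63 in all.

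The mitochondrial ribosome translates the few proteins that mitochondrial DNA encodes, all of them subunits of the respiratory chain complexes and ATP synthase. Its RNAs, mt-Rnr1 and mt-Rnr2, come from mitochondrial DNA, whereas all of its proteins are encoded in the nucleus, made in the cytoplasm, and imported. The large subunit forms the peptide bond and holds the exit tunnel, and the small subunit binds the mRNA and decodes it. The symbols do not map exactly onto the subunits, since the proteins of Mrps18a and Mrps30 sit in the large subunit and the protein of Mrps36 is now known as a component of the 2-oxoglutarate dehydrogenase complex.

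The 77 genes lay on 17 chromosomes, with 11 on chromosome 11 and 8 on chromosome 17. Their combined exons had a median length of 2533 bases, against 4597 bases over all tested protein-coding genes. Of the 77 genes, 25 (32.5%) shared a divergent start region with a neighboring gene whose start lay within 500 bases on the opposite strand, against 12.8% of the 12934 protein-coding genes tested. Mrpl46 and Mrps11 faced each other in this way, and Mrps12 faced Sars2, Mrpl36 faced Ndufs6, and Mrpl49 faced Fau, which encode a mitochondrial tRNA synthetase, a complex I subunit, and a cytoplasmic ribosomal protein fusion.

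Promoters were compared because the genes varied together across mice. RefSeq promoters on GRCm38.p6, 250 bases before to 50 bases after the start, matched 68 of the 77 genes and were searched on both strands for short motif cores. The ETS core CCGGAAG was present in 33.8% of the 68 promoters and in 17.9% of 10128 promoters of tested protein-coding genes. The YY1 core AAGATGGC was present in 17.6% against 4.59%, and the NRF1 core GCATGCGC in 11.8% against 5.37%. At least 1 of these 3 was found in 51.5% against 25.5%. The ERR element AAGGTCA was found in 5.88% against 2.85%, the CCAAT box in 38.2% against 38.3%, and the TATA box TATAAA in 5.88% against 7.21%. The HIF element TACGTG was found in 1 of the 68 promoters (1.47%, against 3.49% of all), that of Mrpl14, and the E-box CACGTG in 7.35% against 10.2%. These last 2 share the letters ACGTG, but the same bases cannot count as both when read on 1 strand, and the ETS, YY1, and NRF1 cores were counted separately where they overlapped. The sequences below lie upstream of 6 genes with higher counts in HIF1α KO mice and show 4 start regions with a core and 2 without. Each is read 5′ to 3′ on the gene's strand and ends at or within 19 bases of the RefSeq start, with ETS and NRF1 cores in capitals.
Mrps18a, chr17:46110866-46110985, plus strand: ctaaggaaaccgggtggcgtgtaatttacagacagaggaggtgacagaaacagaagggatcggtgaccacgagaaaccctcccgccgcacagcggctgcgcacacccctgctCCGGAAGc
Mrps22, chr9:98601680-98601799, minus strand: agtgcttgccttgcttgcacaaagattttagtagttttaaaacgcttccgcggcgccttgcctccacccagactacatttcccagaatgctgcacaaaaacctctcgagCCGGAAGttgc
Mrpl58, chr11:115403632-115403751, plus strand: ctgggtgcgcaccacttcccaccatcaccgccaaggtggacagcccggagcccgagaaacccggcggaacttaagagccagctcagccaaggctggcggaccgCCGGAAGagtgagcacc
Mrpl9, chr3:94443198-94443317, plus strand: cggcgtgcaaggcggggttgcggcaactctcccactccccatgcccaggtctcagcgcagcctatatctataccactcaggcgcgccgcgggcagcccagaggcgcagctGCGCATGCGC
Mrpl2, chr17:46646109-46646228, plus strand: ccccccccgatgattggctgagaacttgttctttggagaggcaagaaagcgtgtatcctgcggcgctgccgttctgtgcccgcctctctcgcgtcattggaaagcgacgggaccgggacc
Mrpl55, chr11:59202386-59202485, plus strand: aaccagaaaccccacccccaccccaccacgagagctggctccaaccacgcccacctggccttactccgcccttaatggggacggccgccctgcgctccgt
In Mrpl9 the capitals hold the NRF1 core on both strands. The windows of Mrpl2 and Mrpl55 hold none of the ETS, YY1, and NRF1 cores.

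All 77 genes were expressed, and 76 had at least 10 counts in every library, with Mrps33 at that count in 62. Together they took 0.194% of the counts in the median library (0.130 to 0.318%), out of totals of 2359780 to 40377963 counts per library. Levels per length, as CPM (counts scaled to a library total of 1000000) per kb of exons averaged over the 63 mice, differed widely between the genes. The highest were Mrps21 at 64.1 ± 15.2 (SD, n = 63), Mrpl18 at 42.5 ± 7.92, Mrpl54 at 41.6 ± 8.62, Mrps28 at 39.4 ± 8.13, and Mrpl2 at 36.8 ± 6.75. Mrps21 stood above the next gene by more than its SD, whereas the other 4 lay within 1 SD of each other. The lowest were Mrps33 at 2.70 ± 0.673, Mrps6 at 2.70 ± 0.515, Mrpl23 at 2.12 ± 0.445, Mrps35 at 1.76 ± 0.263, and Mrps10 at 1.57 ± 0.232. The order rests on the length used. With the principal protein-coding transcript in place of all exons, Mrpl42 rose from rank 6 to rank 1 at 198 CPM per kb, and Mrps10 and Mrpl23 moved from ranks 77 and 75 to ranks 46 and 41.

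**Figure D1:**
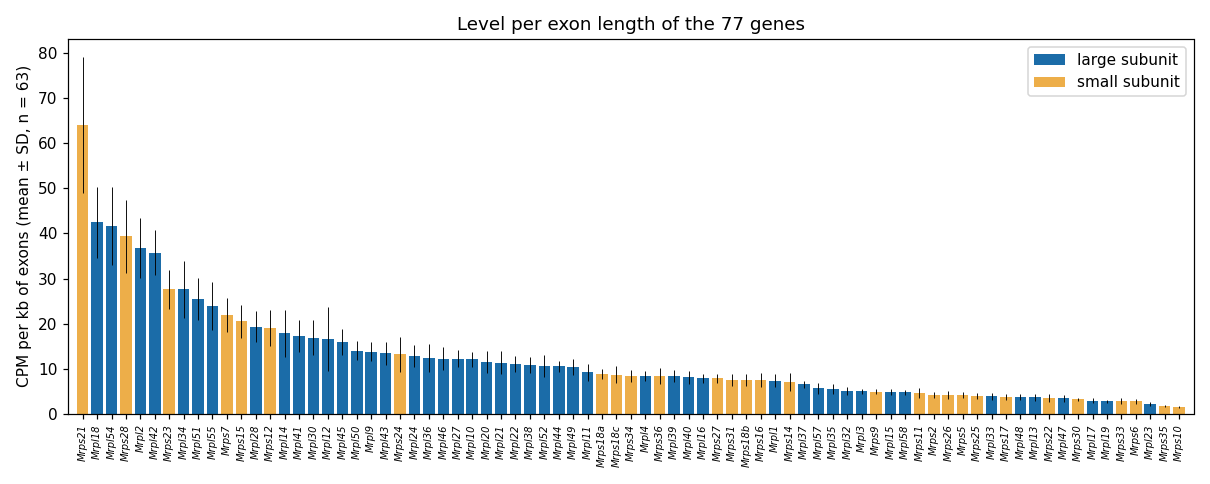
Mean level of each gene in CPM per kb of combined exons (bars, mean over 63 mice; lines, SD), ordered from high to low and colored by the subunit of the symbol. Mrps21 is the highest at 64.1 and Mrps10 the lowest at 1.57, and genes of both subunits are found along the whole order.

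Mrpl53, on chr6:83109040-83109939, was the 1 protein-coding gene below the count rule. It had 25 counts over all 63 libraries and at most 3 in any, and 88.0% of its exon bases are also exon bases of other genes on the same strand, Ccdc142os and Gm42688. Overlap also touched 7 of the 77 genes on the same strand and 27 on the other strand. On the same strand the largest shares were 36.97% in Mrps34 (Nme3 and Mapk8ip3 for both strands), 23.2% in Mrps18c (Gm43511), 19.9% in Mrps6 (Gm49711 and Slc5a3), and 15.4% in Mrps24 (Urgcp). On the other strand they were 69.8% in Mrps25 (Nr2c2), 63.4% in Mrps34, 36% in Mrpl19 (Gcfc2), 33.4% in Mrpl43 (Twnk), 30.5% in Mrps18b (Gm16279), 26.3% in Mrpl24 (Rrnad1), and 24.2% in both Mrps27 and Mrpl47. Values of these genes are uncertain to that extent. For overlap on the other strand this rests on the strand setting of the counting, which is not given in the sources used here. Overlap on the same strand leaves the values uncertain under any such setting.

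Mouse numbers run from 1 to 64, and libraries differed between blocks of 16 consecutive numbers, which the labels do not describe further. The combined share of mt-Rnr1 and mt-Rnr2 had medians of 6.55, 1.84, 2.67, and 5.13% of the counts in blocks 1 to 4, and the share of the 77 genes had medians of 0.180, 0.238, 0.194, and 0.189%. The blocks were spread unevenly over the groups, with 4, 0, 2, and 2 exercised fl/fl mice at ZT3 in blocks 1 to 4 against 1, 3, 1, and 2 exercised HIF1α KO mice. A score per mouse, the mean over the 77 genes of log2 CPM centered on each gene's mean, averaged -0.096 ± 0.0947 (SD, n = 16) in block 1, 0.161 ± 0.161 (n = 16) in block 2, 0.0336 ± 0.147 (n = 15) in block 3, and -0.0964 ± 0.0917 (n = 16) in block 4. Blocks held 43.3% of the variance of this score and the 8 groups 24.6%, as a description. Each comparison below was therefore also fitted with block as a term.

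The genotype comparison asks whether loss of HIF1α in muscle fibers changes these transcripts. Averaged over the 4 combinations of time and treatment, 32 of the 77 genes had higher counts in HIF1α KO muscle than in fl/fl muscle and none was lower (3.58% of all genes were), by edgeR's quasi-likelihood test at a Benjamini-Hochberg adjusted p under 0.1. Over all 15241 genes tested, 4.68% were called higher in the same comparison. The members' median log2 fold change was 0.14, with 74 of 77 above 0, against a median of -0.003 over all genes. Of the 32, 23 were among the 48 large subunit genes and 9 among the 29 small subunit genes, and the medians of the 2 subunits were 0.14 and 0.14. With the mouse-number block as a term, 21 genes were called higher, all of them among the 32, with 3.95% of all genes called higher and a member median of 0.11. DESeq2 called 33 higher, with 4.64% of its tested genes called higher. Without mouse 22, the sedentary fl/fl mouse at ZT3 with the highest score of its genotype, 45 were called higher, with 7.75% of all genes. Total-count scaling left 1 call, with 0.958% of all genes, at a member median of 0.14. In bulk muscle, fewer cells of a type and less RNA per cell cannot be told apart.

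**Figure D2:**
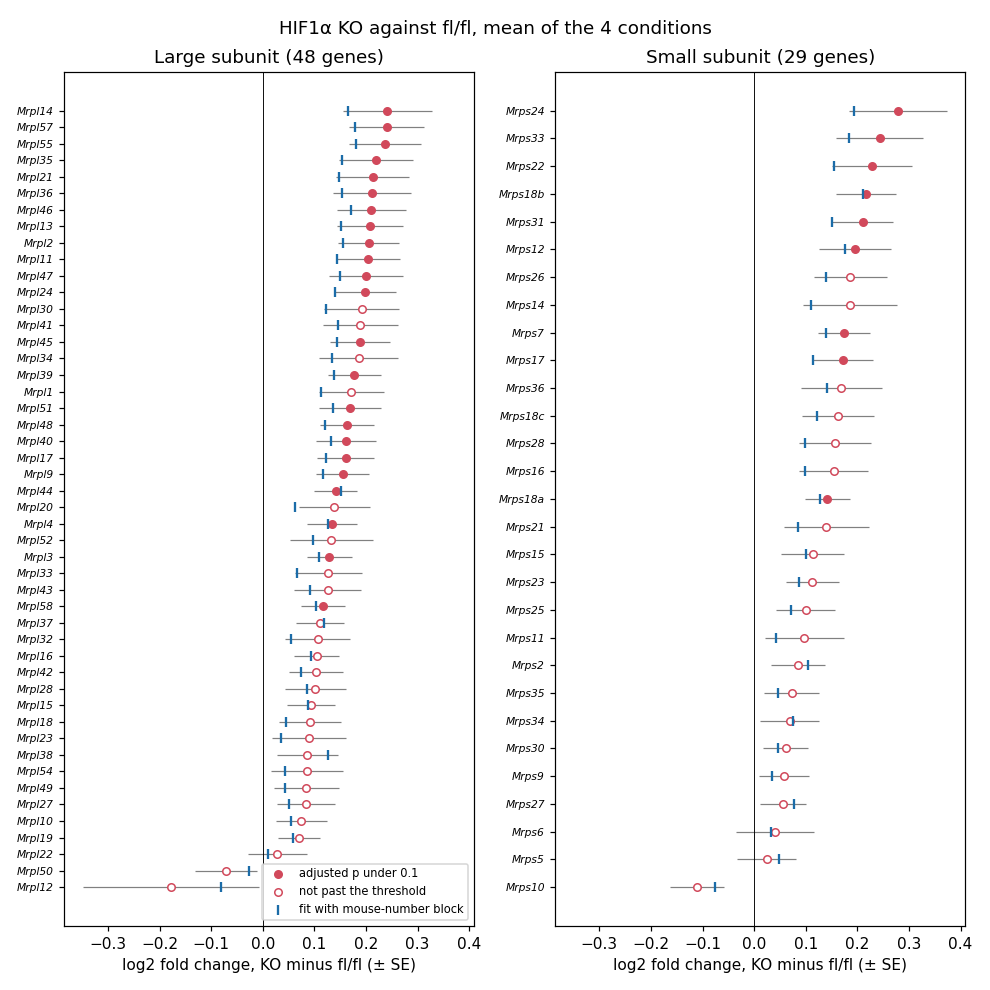
Log2 fold change of each gene between HIF1α KO and fl/fl mice, averaged over the 4 conditions (points, edgeR estimate; lines, SE), with large subunit genes on the left and small subunit genes on the right. Filled points passed an adjusted p under 0.1 (23 large and 9 small subunit genes), blue ticks are the estimates with the mouse-number block, and Mrpl12, Mrpl50, and Mrps10 are the 3 genes below 0.

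The smallest p among the 77 genes belonged to Mrps18b (chr17:35910379-35916389, GRCm38), whose exons overlap Gm16279 as given above. Mrps18b encodes a homolog of the bacterial small subunit protein S18 that sits on the small subunit. Its CPM had a lowest, median, and highest value of 9.999, 14.6, and 17.98 across 32 fl/fl mice, compared with 12.3, 16.2, and 23.4 across 31 HIF1α KO mice. The ranges overlapped, and 24 of 31 HIF1α KO mice lay above the fl/fl median. The log2 fold change was 0.22 ± 0.06 (SE, edgeR adjusted p = 0.0185), and 0.21 ± 0.06 with the block (adjusted p = 0.0168 by the same test). Mrps18b was picked by its average over the conditions. It was positive in each condition, at 0.23 in sedentary mice at ZT3, 0.18 in sedentary mice at ZT15, 0.20 in exercised mice at ZT3, and 0.26 in exercised mice at ZT15. The paralog Mrps18a, whose protein is in the large subunit, was also called, at 0.14 ± 0.04 (edgeR adjusted p = 0.0460). The paralog Mrps18c, at 0.16 ± 0.07, was not called (edgeR adjusted p = 0.167).

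The small subunit genes with the next smallest p in the average were Mrps31 and Mrps7, the second of which encodes a protein of the head of the subunit, and Mrps12, Mrps17, Mrps22, Mrps24, and Mrps33 were also called. Mrps31 had CPM of 18.2, 21.9, and 35.04 (lowest, median, highest) across fl/fl and 19.4, 25.5, and 35.9 across HIF1α KO mice. The highest mice of both genotypes lay close together and the lower and middle parts of the ranges were shifted, with 27 of 31 HIF1α KO mice above the fl/fl median. The log2 fold change of Mrps31 was 0.21 ± 0.06 (edgeR adjusted p = 0.0228). Mrps7 had CPM of 33.1, 43.3, and 62.99 across fl/fl and 35.4, 46.7, and 63.9 across HIF1α KO mice, again with overlapping ranges, and its log2 fold change was 0.17 ± 0.05 (edgeR adjusted p = 0.0315).

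Among large subunit genes, Mrpl2, whose bacterial counterpart lies beside the peptidyl transferase center, had CPM of 26.2, 39.1, and 60.5 across fl/fl and 34.2, 45.1, and 61.2 across HIF1α KO mice. The highest values were alike and the lowest differed, with 24 of 31 HIF1α KO mice above the fl/fl median. Its log2 fold change was 0.21 ± 0.06 (edgeR adjusted p = 0.0282). Mrpl44, whose protein has a ribonuclease III fold, had narrow, overlapping ranges, with CPM of 13.7, 16.2, and 20.6 across fl/fl and 12.9, 18.04, and 21.9 across HIF1α KO mice, and 25 of 31 HIF1α KO mice lay above the fl/fl median. Mrpl44 changed by 0.14 ± 0.04 (edgeR adjusted p = 0.0352), and by 0.15 ± 0.04 with the block, so that it was no smaller. Mrpl45, which anchors the ribosome at the inner membrane near the tunnel exit, changed by 0.19 ± 0.06, and Mrpl24, at the tunnel exit, by 0.20 ± 0.06 (edgeR adjusted p = 0.0450 and 0.0422). Mrpl11, in the base of the stalk that binds translation factors, changed by 0.20 ± 0.06, Mrpl13 by 0.21 ± 0.06, Mrpl39 by 0.18 ± 0.05, Mrpl55 by 0.24 ± 0.07, and Mrpl57 by 0.24 ± 0.07. Mrpl58, formerly Ict1, a peptidyl-tRNA hydrolase that frees stalled ribosomes, was called with the largest p of the 32, at 0.12 ± 0.04 (edgeR adjusted p = 0.0972), and the next gene, Mrpl1, was just past the threshold at 0.17 ± 0.06 (adjusted p = 0.101 in the same fit). Mrps30, at 0.06 ± 0.04, and Mrps36, at 0.17 ± 0.08, were not called.

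**Figure D3:**
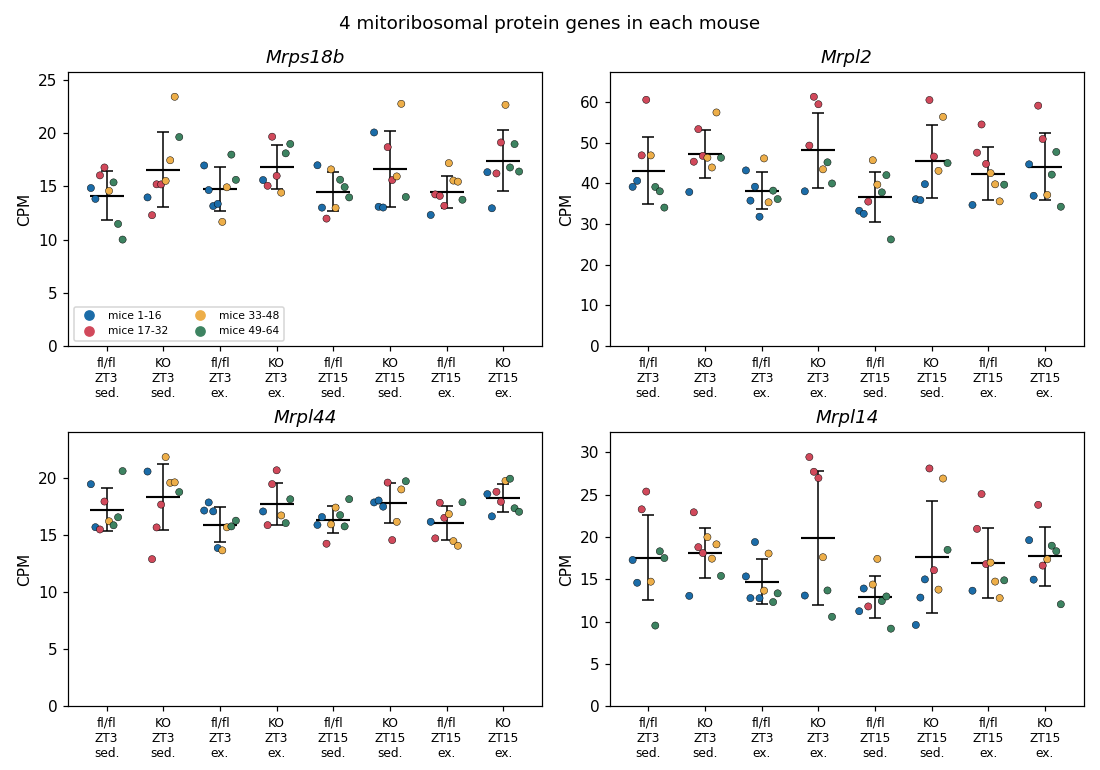
CPM in each mouse by group for Mrps18b and Mrpl2, which were among the 3 smallest p in the genotype average, Mrpl44, with a small spread, and Mrpl14, with a large one (points, mice colored by block of 16 mouse numbers; lines, group mean and SD). Mice 17 to 32 are often the highest of their group in Mrpl14 and Mrpl2.

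Within blocks, the mean score of HIF1α KO mice exceeded that of fl/fl mice by 0.0537 in block 1, 0.0873 in block 2, 0.16 in block 3, and 0.1 in block 4. Over all mice it averaged 0.0654 ± 0.164 (SD, n = 31) for HIF1α KO and -0.0633 ± 0.14 (SD, n = 32) for fl/fl mice, and the ranges, -0.211 to 0.44 and -0.261 to 0.382, overlapped over most of their length. The large minus small subunit score was 0.000327 ± 0.0434 (SD, n = 31) for HIF1α KO and -0.000317 ± 0.0384 (SD, n = 32) for fl/fl mice, a difference far below the spread between mice. The group means of this score ran from -0.0291 to 0.0338.

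The genotype difference was also fitted within each of the 4 conditions. In exercised mice at ZT3, 2 members were higher in HIF1α KO, with 0.873% of all genes called higher, and the member median was 0.25. Mrpl24 had CPM of 18.2, 24.6, and 27.5 across fl/fl and 27.2, 29.9, and 45.6 across HIF1α KO mice, so that the ranges met only at 1 end, and its log2 fold change was 0.48 ± 0.12 (edgeR adjusted p = 0.0625). Mrps7 had CPM of 33.7, 36.5, and 46.6 against 42.3, 45.5, and 62.7, at 0.38 ± 0.10 (edgeR adjusted p = 0.0708). With the block term, Mrpl24 was 0.28 ± 0.10 and Mrps7 0.26 ± 0.09 and neither was called (edgeR adjusted p = 0.348 and 0.359), and the member median was 0.14. DESeq2 called 5 members here, with 2.79% of its tested genes called higher.

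In the other 3 conditions edgeR called no member. In sedentary mice at ZT3, with 0.4% of all genes called in either direction, the member median was 0.10, 3 members had an unadjusted p under 0.05, and the smallest p was that of Mrpl37, at 0.20 ± 0.09 (edgeR adjusted p = 0.679), followed by Mrps18b. In sedentary mice at ZT15, with 0.0459% of all genes called, the member median was 0.23 and 30 members had an unadjusted p under 0.05. Mrpl48, at 0.38 ± 0.10 (edgeR adjusted p = 0.247), and Mrps31, at 0.40 ± 0.12, led there, and with the block Mrpl48 was called at 0.32 ± 0.08 (edgeR adjusted p = 0.0990), with 0.0525% of all genes called higher. In exercised mice at ZT15, with 0.4% of all genes called, the member median was 0.01 and 3 members had an unadjusted p under 0.05, led by Mrps2 at 0.28 ± 0.10 (edgeR adjusted p = 0.428) and Mrps18b. DESeq2 called no member in any of the 3. With the block the medians were 0.04 in sedentary and 0.14 in exercised mice at ZT3, and 0.18 in sedentary and 0.09 in exercised mice at ZT15, so that they lay closer together than without it. Of the 32 genes called in the average, 23 had a positive estimate in all 4 conditions, 8 in 3, and 1 in 2. These 32 were selected by their average over the same 4 conditions, so that mostly positive estimates follow from the selection. Their medians were 0.11 in sedentary and 0.34 in exercised mice at ZT3, and 0.26 in sedentary and 0.03 in exercised mice at ZT15.

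**Figure D4:**
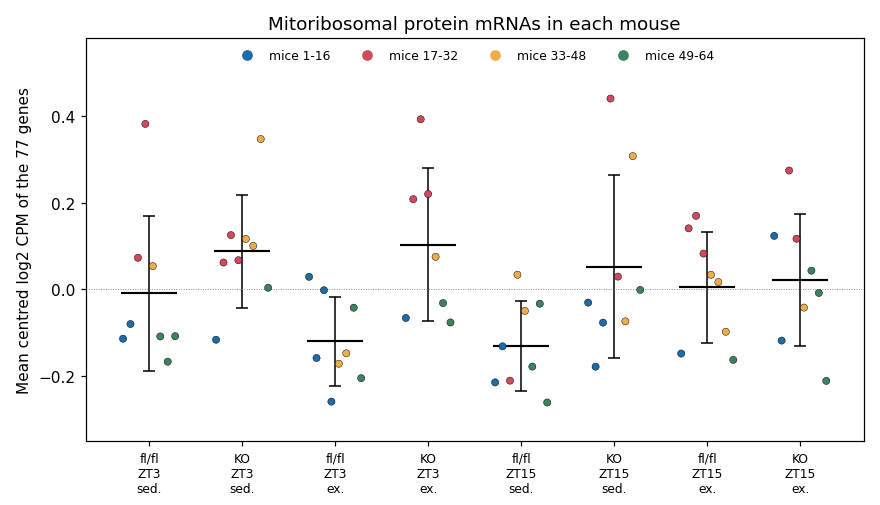
Score of each mouse, the mean centered log2 CPM of the 77 genes, by group (points, mice colored by block of 16 mouse numbers; lines, group mean and SD; sed., sedentary; ex., exercised). HIF1α KO means exceed fl/fl means by 0.0967 in sedentary and 0.222 in exercised mice at ZT3 and by 0.183 in sedentary and 0.0178 in exercised mice at ZT15, and mice 17 to 32 are often the highest of their group.

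Interaction terms, which test whether the genotype difference itself differed, called no member by edgeR, and called 0% of all genes. The genotype by time term had a member median of 0.12 in sedentary mice, with 2 members at an unadjusted p under 0.05, led by Mrpl36 and Mrpl15, and of -0.27 in exercised mice, with 17, led by Mrpl24 and Mrpl30. The genotype by exercise term had a median of 0.18 at ZT3, with 6, led by Mrpl15 and Mrpl24, and of -0.21 at ZT15, with 13, led by Mrpl48 and Mrps18c. The term for all 3 factors had a median of -0.41, with 27, led by Mrpl36 at -0.98 ± 0.30 (edgeR adjusted p = 0.262) and Mrpl30 at -0.87 ± 0.29. With the block, the genotype by time medians were 0.13 in sedentary and -0.04 in exercised mice, the genotype by exercise medians were 0.09 at ZT3 and -0.08 at ZT15, and that of the term for all 3 factors was -0.17. Without mouse 22, the sedentary genotype by time median was 0.02, the genotype by exercise median at ZT3 was 0.06, and that of the term for all 3 factors was -0.26. DESeq2 called no member in these 5 terms.

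Time of day was compared as ZT15 against ZT3, which share mice with the genotype comparison. In the average over genotypes and treatments, where 8.02% of all genes were called in either direction, edgeR called no member, 1 had an unadjusted p under 0.05, DESeq2 called 0, and the member median was -0.03. In sedentary fl/fl mice, with 1.88% of all genes called, the median was -0.15 and edgeR called none, although 14 members had an unadjusted p under 0.05. The first of these were Mrps18c at -0.41 ± 0.14 (edgeR adjusted p = 0.140) and Mrpl36 at -0.43 ± 0.15 (edgeR adjusted p = 0.164). With the block, 5 members were called lower at ZT15 in these mice, with 2.53% of all genes called lower, and they were Mrpl36 (-0.38 ± 0.12), Mrpl14 (-0.40 ± 0.13), Mrps18c (-0.37 ± 0.13), Mrpl48 (-0.23 ± 0.08), and Mrpl18 (-0.27 ± 0.09), named here after their values were seen. Without mouse 22 of the sedentary fl/fl group at ZT3, the median of the unblocked fit was -0.04 and 1 member had an unadjusted p under 0.05.

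In exercised fl/fl mice, with 1.18% of all genes called, the time-of-day median was 0.16, with 9 members at an unadjusted p under 0.05, led by Mrps26 at 0.38 ± 0.14 (edgeR adjusted p = 0.256) and Mrps7. That median was 0.01 with the block and -0.01 with the mitochondrial rRNA share as a covariate. In HIF1α KO mice the medians were -0.03 in sedentary mice, with 0.479% of all genes called and 0 members at an unadjusted p under 0.05, and -0.09 in exercised mice, with 0.663% called and 2 members at that p. The smallest p in these belonged to Mrpl12 and Mrpl52 in sedentary and to Mrps9 and Mrpl52 in exercised mice, none of them called. DESeq2 also called 0 members in each of these 4 comparisons.

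Exercise, measured 3 h after the run, called no member by edgeR or DESeq2 in the average, where 2.84% of all genes were called, with a median of 0.00 and 1 member at an unadjusted p under 0.05. In fl/fl mice the member medians were -0.15 at ZT3, with 0.236% of all genes called and 10 members at an unadjusted p under 0.05, and 0.16 at ZT15, with 0% called and 12 members at that p. Mrps14, at -0.51 ± 0.18 (edgeR adjusted p = 0.253), and Mrpl30 led at ZT3, and Mrps24, at 0.51 ± 0.19 (edgeR adjusted p = 0.466), and Mrpl20 at ZT15. With the block these medians were -0.06 at ZT3 and 0.06 at ZT15, and without mouse 22 the median at ZT3 was -0.04. In HIF1α KO mice the medians were 0.01 at ZT3 and -0.04 at ZT15, with 0.131 and 0.0591% of all genes called and 1 and 3 members at an unadjusted p under 0.05. Mrpl15 and Mrps2 had the smallest p in these, followed by Mrpl12 and Mrps10. DESeq2 called 0 members in these 4 comparisons, and gave 6 members no adjusted p in fl/fl mice at ZT3.

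The time by exercise term was called by one tool and not by the other. In fl/fl mice edgeR called no member, and 0% of all genes, with a median of 0.29 and 31 members at an unadjusted p under 0.05. DESeq2 called 12 members higher there, with 4.2% of its tested genes called higher, after its filter had left 7257 genes, and gave 2 members no adjusted p. The first were Mrpl36 at 0.70 ± 0.22 and Mrpl30 at 0.63 ± 0.20 (DESeq2 adjusted p = 0.0757 and 0.0777). In the edgeR fit with the block the median was 0.13 and no member was called, and with the mitochondrial rRNA share as a covariate it was 0.04. Without mouse 22 the edgeR median was 0.19 and no member was called. In HIF1α KO mice the median was -0.07, with 0 members at an unadjusted p under 0.05 and 0 called by either tool.

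Sex was part of the design, and 14 members were higher in males than in females and none lower by edgeR, with 13.3% of all genes called higher, so that the members' share of 18.2% was near the background. The median was 0.07, and 43 of 48 large and 23 of 29 small subunit genes were above 0. Mrps7 had CPM of 33.1, 42.1, and 62.99 (lowest, median, highest) in 32 females and 35.6, 46.7, and 63.9 in 31 males, at 0.18 ± 0.05 (edgeR adjusted p = 0.00597). Mrps18a, at 0.14 ± 0.04, Mrps23, at 0.16 ± 0.05, Mrpl55, at 0.21 ± 0.07, Mrpl51, at 0.18 ± 0.06, and Mrpl14, at 0.26 ± 0.09, followed. With the block, 17 members were higher and 1 lower, with 15.8% of all genes called higher. DESeq2 called 13 members higher, with 9.91% of its tested genes, and edgeR 22 without mouse 22, with 13.8% of all genes. Slow-fiber markers were lower in males, 6 of 6, with a summed median of 619 CPM (232 to 1468) in males and 1161 CPM (542 to 3264) in females. Lower in males were also adipocyte markers, 4 of 4 (summed medians of 99.96 and 179 CPM), Schwann cell markers, 3 of 3 (46.2 and 54.5 CPM), and fibroblast markers, 2 of 3 (862 and 1018 CPM). Red blood cell markers were higher in males, 3 of 5 (142 and 126 CPM). Of 7 skeletal muscle fiber markers, 2 were called higher and 1 lower in males. The part of these cells in the sex difference was not tested.

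The genotype difference in each sex was fitted after the data had been seen, with a genotype by sex term. In males, 46 members were higher and 1, Mrpl50, was lower in HIF1α KO, with 8.23% of all genes called higher and a member median of 0.23. In females, edgeR called no member, with 0.269% of all genes called higher, a median of 0.06, and 2 members at an unadjusted p under 0.05. The term itself called no member (0.0459% of all genes in either direction), with 22 members at an unadjusted p under 0.05, so that a difference between the sexes was not shown. Mrpl46, a divergent partner of Mrps11, had the smallest p in males at 0.42 ± 0.09 (edgeR adjusted p = 0.00204) and was 0.00 ± 0.09 in females (edgeR adjusted p = 0.999). Blocks were uneven here, with 6 male HIF1α KO and 2 male fl/fl mice in block 2 and 2 and 6 in block 1. With the block, 5 members were called in males, with 1.28% of all genes called higher and a median of 0.13, and 1, Mrps18b, in females, with 0.426% of all genes and a median of 0.08, and the term called none, with 4 members at an unadjusted p under 0.05. DESeq2 was not run for this term.

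Members varied together between mice of the same group. After group and sex were taken out of log2 CPM, the mean correlation over the 2926 pairs of members across 63 mice was 0.345, against 0.0041 over all pairs of tested genes. It was 0.387 among large subunit genes, 0.276 among small subunit genes, and 0.331 between them, and 83.9% of member pairs were positive. With the block also taken out it was 0.304, as a description of values that share libraries and depth. Mrps7 followed the mean of the other 76 members most closely (r = 0.901), then Mrpl11 (0.890) and Mrpl45 (0.883).

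Mrpl12 went the other way. Its protein forms the flexible stalk that recruits translation factors, and it has also been described as a partner of the mitochondrial RNA polymerase. Mrpl12 (chr11:120484613-120489065, GRCm38) had the largest SD of the 77 genes between mice of a group, 0.713 on the log2 scale, against a member median of 0.242, and correlated at -0.583 with the mean of the other members. In block 1 its CPM ran from 25.9 through a median of 33.1 to 43.2, and in block 2 from 6.60 through 12.4 to 17.01. Blocks 1 and 2 thus did not overlap, as in no other member and in 0.394% of all tested genes. Block 3 spanned 11.6 to 45.98 with a median of 21.1, and block 4 spanned 18.7 to 39.8 with a median of 33.5. Between genotypes Mrpl12 was not called, at -0.18 ± 0.17, and at -0.08 ± 0.10 with the block. Mrpl50, at a median of 32.5 CPM in block 1 and 23.8 in block 2, and Mrps10, at 14.6 and 11.4, were also lower in block 2, and correlated with the other members at -0.431 and -0.381. The medians of 67 members (87%) were higher in block 2 than in block 1, against 52.1% of all tested genes, up to 1.68 times in Mrpl14 (13.8 and 23.1 CPM) and 1.63 times in Mrps24 (16.99 and 27.7 CPM). The part of the blocks' differing rRNA share in these values was not tested.

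**Figure D5:**
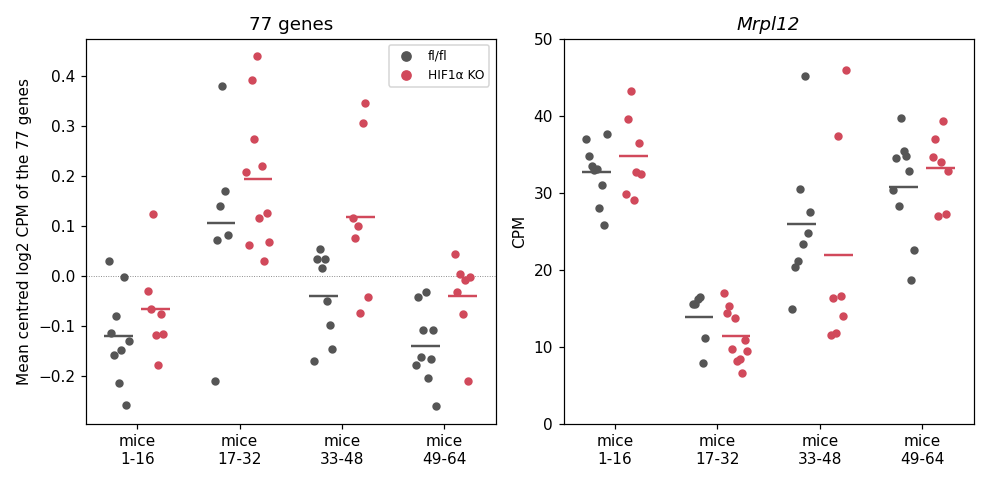
Score over the 77 genes (left, mean centered log2 CPM) and CPM of Mrpl12 (right) by block of 16 mouse numbers and genotype (points, mice; lines, means). The score is highest in mice 17 to 32, where Mrpl12 is lowest, at 6.60 to 17.01 CPM against 25.9 to 43.2 CPM in mice 1 to 16, and in each block the HIF1α KO mean of the score is above the fl/fl mean.

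After Mrpl12, Mrps24 (SD 0.404) and Mrps14 (0.376) varied most between mice, and Mrpl19 (0.151), Mrpl44 (0.152), and Mrpl58 (0.157) least. The median over all tested genes was 0.331.

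Other genes of mitochondrial translation and transcription were counted in 5 lists written with earlier results known. Of 66 genes tested, 16 were called higher and 1 lower in HIF1α KO muscle in the genotype average, against 4.68% higher and 3.58% lower among all genes. Of 5 mitoribosome proteins without an Mrp symbol, 3 were called higher (Ptcd3 at 0.21 ± 0.05, Dap3 at 0.20 ± 0.05, and Gadd45gip1 at 0.23 ± 0.07) and 0 lower, with a median of 0.20. Of 25 genes of mitoribosome assembly and rRNA modification, 6 were higher and 0 lower, with a median of 0.13, among them Tfb1m, a methyltransferase of the small subunit rRNA, at 0.23 ± 0.06, Trub2, a pseudouridine synthase family member, at 0.19 ± 0.05, the GTPase Mtg1 at 0.17 ± 0.05, and the rRNA methyltransferase Mrm3 at 0.21 ± 0.07. Of 11 translation factors, 3 were higher, with a median of 0.12, the release factor Mtrf1 at 0.26 ± 0.07, the elongation factor Tsfm at 0.24 ± 0.06, and the initiation factor Mtif3 at 0.25 ± 0.07. Of 17 mitochondrial tRNA synthetases, 2 were higher, with a median of 0.11, Iars2 at 0.11 ± 0.03 and Pars2 at 0.30 ± 0.09.

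Of 8 genes of mitochondrial transcription and mRNA handling, 2 were higher and 1 lower. Tefm, the elongation factor of mitochondrial transcription, changed by 0.27 ± 0.07, and Tfam, which packages mitochondrial DNA, by 0.16 ± 0.06. Mss51, a muscle gene named for a yeast translational activator, fell by 1.13 on the log2 scale (edgeR adjusted p = 4.56e-06), from 61.6 ± 37.6 CPM (SD, n = 32) across fl/fl to 26.7 ± 20.6 CPM (SD, n = 31) across HIF1α KO mice.

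Compared lists, taken by gene symbol, show how the 77 genes stood among genes named for other multi-subunit complexes in the genotype average. The complex I list took symbols of Nduf, a letter from a, b, c, s, and v, and a digit, which do not map exactly onto the complex. Of its 37 genes, 14 (37.8%) were called higher and 0 lower, with a median of 0.16. The cytoplasmic ribosomal protein list took symbols of Rpl or Rps and a digit, Rplp and a digit, or Rpsa. This rule also takes in kinases of a ribosomal protein, with Rps6k symbols, so its counts are not of ribosomal proteins alone. Of its 94 tested genes, 9 (9.57%) were called higher and 3 lower, with a median of 0.12. In the sex comparison, 8 genes of the complex I list were higher and 0 lower in males. Of the cytoplasmic ribosomal protein list, 3 genes were higher and 14 lower, with 13.3% of all genes higher and 11.8% lower. Differences between lists were not tested.

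Of 25 members with a divergent partner, 12 were called higher in the genotype average, where 41.6% of the 77 members and 4.68% of all genes were. Of the 22 partners that were tested, 2 were called higher and none lower. One of these 2 was Mrpl46, itself a member. Mrps18b was called at 0.22 and its partner Ppp1r10 was at -0.05, and Mrps7 was called at 0.17 and its partner Gga3 at -0.001. Calls were also counted by motif core. Of 23 members with the ETS core 11 were called, with a median of 0.14, and of 45 without it 19, with a median of 0.15. Of 12 with the YY1 core 6 were called, and of 56 without it 24. Of 8 with the NRF1 core 4 were called, and of 60 without it 26.

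Hif1a itself had a median of 34.96 CPM (25.9 to 57.3) across fl/fl and 35.95 CPM (28.8 to 49.7) across HIF1α KO mice, at 0.004 ± 0.049. Its count covers the whole gene and mostly exons outside the deleted exon 2, and does not check the genotype labels. Muscle fiber markers were abundant in every library, and the markers Ucp1, Cd3e, and Cd79a, of brown adipocytes, T cells, and B cells, had medians of 0. Schwann cell markers had a summed median of 62.4 CPM (32.7 to 149) across fl/fl and 47.2 CPM (28.6 to 130) across HIF1α KO mice, with 2 of 3 called lower. Fibroblast markers had 1066 CPM (620 to 1467) and 916 CPM (638 to 1503), with 1 of 3 lower. Of 2 satellite cell markers, 1 was higher, Myf5 (edgeR adjusted p = 0.0961). Its counts were low, at 1.426 ± 0.5235 CPM (SD) across fl/fl and 1.885 ± 0.6097 CPM across HIF1α KO mice. Over all 15241 genes tested, 713 were called higher and 546 lower. None of the endothelial, adipocyte, immune, red blood cell, slow-fiber, or skeletal muscle fiber markers was called between genotypes by edgeR. The part of other cell types in the genotype difference was not tested.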

How the data were processed

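Raw counts per gene in gastrocnemius were deposited. Per the paper's methods, the authors prepared poly-A libraries, sequenced 52-base paired reads, aligned them to mm10 with STAR, and counted them with featureCounts. Versions, annotation, and strand setting are not given in the sources used here. Identifiers were matched without version to GENCODE M21 (55141 of 55401). Genes kept by edgeR's filterByExpr (minimum count 10), 15241 in 63 libraries, were scaled by TMM and fitted with group and sex by robust quasi-likelihood in edgeR 4.0.16 (R 4.3.3), after a test on simulated data. P-values were Benjamini-Hochberg adjusted over all genes, with a threshold of 0.1, and standard errors came from the fold change and F. Log2 CPM used a prior count of 2. DESeq2 1.42.0 was an alternative. The 77 genes and the lists were chosen with earlier results of these data known. Genes were named by rule: the 12 smallest p in the genotype average, 6 past the threshold or the first 2 in other comparisons, the 5 highest and lowest levels, the 3 largest and smallest SDs, the gene below the count rule, up to 4 called per pathway list, and Mrps18a, Mrps18b, Mrps18c, Mrps30, Mrps36, Mrpl12, and Mrpl58. Others were named after their values were seen.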

Additional observations from a re-analysis of the deposited data

Results flagged for a closer look

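Scores and the CPM of 12 members were screened in each of the 8 groups for a highest or lowest mouse whose gap to its neighbor took an unusually large part of the group's range (Dixon's 95% limit), which chance passes in about 1 of 20 groups, and 11 of 112 screens passed. Mouse 22, a sedentary fl/fl mouse at ZT3, accounted for 7 of them. Its score over the members was 0.382 against a next value of 0.0731 and a group median of -0.0937, and its CPM were 62.99 for Mrps7, 22.4 for Mrpl57, 42.2 for Mrpl24, 44.02 for Mrpl11, 46.8 for Mrpl13, and 63.8 for Mrpl45, each the highest of the group. This library had the lowest share of mt-Rnr1 and mt-Rnr2 counts of all 63, 0.712%, and the highest share of counts in the 77 genes, 0.318%. Without it, 45 members were called higher in the genotype average in place of 32, while the share of all genes called higher went from 4.68 to 7.75%, and 22 in the sex comparison in place of 14, with 13.8% of all genes in place of 13.3%. Leaving out the highest fl/fl mouse raises the difference from HIF1α KO mice by construction.

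The large minus small subunit score of mouse 41, sedentary fl/fl at ZT15, was 0.0861 against a group median of -0.00454, in a library of 2767721 counts. In HIF1α KO mice, Mrps7 was 63.2 CPM in mouse 24 (exercised, ZT15), and Mrpl57 was 28.0 CPM in mouse 25 (sedentary, ZT15) and 23.7 CPM in mouse 45 (sedentary, ZT3).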

How the results depend on the processing

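The count of 32 members called in the genotype average was 13 at an adjusted p under 0.05, 1 with total counts and no TMM factor, 12 without a filter, 21 with the block of 16 mouse numbers, and 19 with the block and RLE size factors, and within 1.5 times under the other alternatives, including 24 with the mitochondrial rRNA share as a covariate. Of the 12 members named first, all stayed positive under every alternative run, and 11 lost their call with total counts and 1 (Mrpl44) without a filter. In exercised mice at ZT3 the count of 2 was 0 at an adjusted p under 0.05, without the sex term, with total counts, without a filter, with the rRNA covariate, and with the block in each of its 3 forms, 1 without the libraries under 5000000 counts, 4 with at least 10 counts in every library, 5 with DESeq2, and 6 without mouse 22. In sedentary mice at ZT15 the block gave 1 call. ZT15 against ZT3 in sedentary fl/fl mice gave 4 calls with total counts, 5 with the block, 3 with the block and without the libraries under 5000000 counts, and 4 with the block and RLE. The time by exercise term in fl/fl mice gave 46 calls with total counts, which shifted the median of all genes by 0.26, and 12 with DESeq2. The 14 calls between sexes were 9 at an adjusted p under 0.05, 0 with total counts, 29 with the rRNA covariate, and 22 without mouse 22. The 46 higher and 1 lower calls in males were 5 with the block. The cause of these changes was not tested. The block with RLE or without the shallow libraries, the fit without mouse 22, the fits by sex, and the transcript length were chosen after seeing the data. The differences in the scores moved by less than the SD between mice under every alternative. That SD was 0.164 across HIF1α KO and 0.14 across fl/fl mice, about as large as the genotype difference itself. This limit therefore does not show that the differences are stable. No paired analysis was possible because each mouse number belongs to 1 mouse and 1 group. Libraries under 5000000 counts, 3 in all, limit the precision of single mice.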
